A study of Homo sapiens with 11 samples.

Results

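Interferon-stimulated genes are the genes that a cell switches on when an interferon, a secreted antiviral signal, binds its receptor. The 43 members described here were chosen by gene symbol, as established interferon-stimulated genes, from the 28152 symbols of the deposited count table. All 43 were among the 16653 genes with enough counts to test. BT-474 is a human breast cancer line, labelled hormone receptor positive and HER2 positive. It was grown as a tumour in the fourth mammary fat pad of female athymic nude mice, which lack T cells but keep other leukocytes. Mice of both groups carried a slow-release pellet of 0.72 mg β-estradiol made to last 90 days, and both groups were dosed under the skin every 4 days. The vehicle group (6 tumours) received mannitol in water, and the evexomostat group (5 tumours) received evexomostat (SDX-7320), an inhibitor of methionine aminopeptidase 2, in the same vehicle at 12 mpk. Tumours are labelled day 33, and the ages of the mice are not given in the sources used here. Replicates keep the numbers of the labels, 001 and 003 to 007 for vehicle and 002 to 005 and 007 for evexomostat. Each library is labelled as a tumour of its own, from 1 cell line, so the p-values measure the spread between tumours of that line.

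Cells sense viral or misplaced nucleic acid through proteins such as DDX58 (RIG-I) and IFIH1 (MDA5), which leads to production of type I and type III interferons. Type I interferon binds IFNAR1 and IFNAR2, and the kinases JAK1 and TYK2 then activate a complex holding STAT2 and IRF9 that binds the interferon-stimulated response element in target promoters. Interferon-gamma, the type II interferon made by T cells and natural killer cells, acts through IFNGR1 and IFNGR2 and on another element, the gamma-activated site. Many carcinomas transcribe interferon-stimulated genes without an infection, and how strongly they do so varies between tumours.

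A core sequence of the interferon-stimulated response element was found in most of the members whose promoter could be searched. RefSeq promoters (build GRCh38.p14, 250 bases before to 50 after the annotated start) were matched for 35 of the 43 members, with DDX58 matched by a synonym. The core of the interferon-stimulated response element, searched on both strands as GAAA, any 2 bases and GAAA again, was present in 24 of these 35 genes (68.6%), against 4.38% of all genes with such a promoter. By promoter, it was in 60.9% of the members' windows and 3.57% of all windows. The core of the gamma-activated site, searched as TTCNNNGAA on both strands, was present in 11 of the 35 genes (31.4%), against 9.38% of all genes. The windows below, 30 bases each and read 5′ to 3′ on the gene's strand, belong to the members on which the results turn; capitals mark the matched core, which shows TTTC in place of GAAA where the match lies on the opposite strand.
ISG15, chr1:1013377-1013406, plus strand: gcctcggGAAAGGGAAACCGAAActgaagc
IFI6, chr1:27672288-27672317, minus strand: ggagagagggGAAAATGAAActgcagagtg
IFITM3, chr11:320876-320905, minus strand: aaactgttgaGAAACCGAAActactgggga
BST2, chr19:17405738-17405767, minus strand: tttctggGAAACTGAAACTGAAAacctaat
SAMD9, chr7:93118096-93118125, minus strand: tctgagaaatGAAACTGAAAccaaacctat
RSAD2, chr2:6877622-6877651, plus strand: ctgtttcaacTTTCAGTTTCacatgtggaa
GBP1, chr1:89065316-89065345, minus strand: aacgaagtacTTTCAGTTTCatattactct
HERC5, chr4:88456987-88457016, plus strand: attacagTTTCCTTTTCCTTTTCgattccg
OAS3, chr12:112938321-112938350, plus strand: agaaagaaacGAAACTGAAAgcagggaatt
EPSTI1, chr13:42992272-42992301, minus strand: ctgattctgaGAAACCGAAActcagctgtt

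In ISG15, BST2 and HERC5 the core occurs as overlapping copies, which merge into the longer capital run. The windows of IRF1 and IRF9, both transcription factors of the pathway, hold the gamma-activated core instead, shown in capitals.
IRF1, chr5:132490879-132490908, minus strand: aacagcctgatTTCCCCGAAatgacggcac
IRF9, chr14:24161191-24161220, plus strand: gaccacgtgatTTCTGGGAAaaggccctcc

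The neighbours PARP9 and DTX3L, a partnered ADP-ribosyltransferase and ubiquitin ligase, are transcribed in opposite directions from a shared promoter. Their windows are the same stretch, chr3:122564322-122564351, read from either strand.
PARP9, minus strand: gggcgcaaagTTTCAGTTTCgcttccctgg
DTX3L, plus strand: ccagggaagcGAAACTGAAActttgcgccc

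CMPK2 and STAT2 have RefSeq promoters in which neither orientation of the response element core was found, which says only that these letters are not in this window. The presence of a core is a description of the sequence and not of binding.

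The libraries held 22808033 to 39249329 counts assigned to genes. Vehicle replicate 001 stood apart in the whole table: its 100 most abundant genes took 23.9% of the counts, against 16.2% to 17.9% in the other 10 libraries, and its scaling factor by trimmed mean of M values (TMM) was 0.86, against 0.96 to 1.08. Among the members, evexomostat replicate 002 stood apart as well, as described below, although its depth of 32093792 counts and its scaling factor of 1.00 lay among those of the others. Of 10 luminal epithelium markers, ESR1 and PGR averaged 0.29 and 0.066 RPM (reads scaled to the library total) over all libraries, and CDH1, KRT19 and FOXA1 averaged 0.46, 0.80 and 1.05 RPM, while KRT8, KRT18 and ERBB2 averaged 331.6, 148.6 and 53.7 RPM. The hormone receptor genes named in the label were thus close to 0 in these tumours. Whether the ERBB2 level fits the HER2-positive label, and whether the tumours match the labelled cell line, was not tested. In bulk tumour RNA, fewer cells that express a gene and less RNA per cell cannot be told apart.

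RNA of most interferon-stimulated genes was abundant in both groups, on a scale that takes no account of transcript length. The median member averaged 138.2 RPM over the 11 libraries, against 20.1 RPM for the median tested gene, and 24 of the 43 exceeded 100 RPM. In CPM, counts scaled to the library total times its TMM factor, the unit of all levels below unless another is named, 39 members were over 10 CPM in every library. The heat map of deviations shows all 43 genes by tumour.

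**Figure D1:**
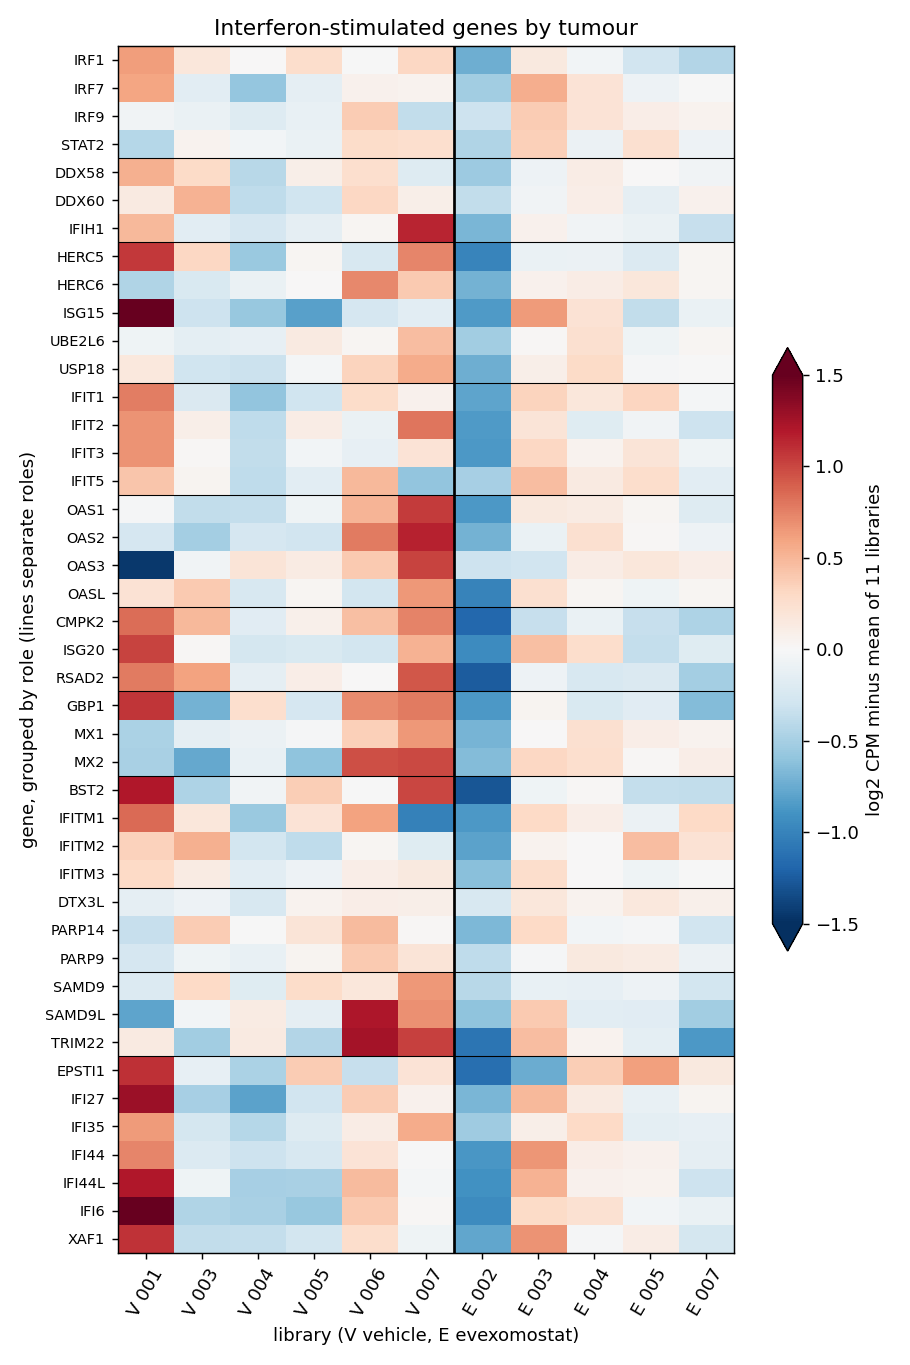
Heat map of the 43 interferon-stimulated genes (rows, grouped by role) in the 11 libraries (columns, V vehicle and E evexomostat, with replicate numbers). Colour is the log2 CPM of a gene minus its mean over the 11 libraries, with values past the ends of the scale drawn in the end colours; the column of evexomostat 002 is the lowest of its group in 43 of 43 rows, and that of vehicle 001 is high for ISG15 and IFI6 and low for OAS3.

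Levels between genes were compared per kilobase of the longest transcript in GENCODE release 29, on the RPM scale; the transcript actually made may be shorter. IFI6, a small mitochondrial protein that protects cells from apoptosis, led with 1189 RPM per kilobase. It was followed by ISG15, the ubiquitin-like protein conjugated to other proteins in infected cells (685 RPM per kilobase), and IFITM3, a membrane protein that blocks fusion of viruses in endosomes (601 RPM per kilobase). BST2 (tetherin), IFI44, IFI27 and IFITM1 came next, with 284, 250, 194 and 111 RPM per kilobase. At the bottom, IFITM2 and IFIT5 stood at 3.77 and 3.65 RPM per kilobase, and EPSTI1 at 0.11 RPM per kilobase, or 0.22 to 1.02 CPM by library, in spite of the response element core printed above. Of the 42 pairs of neighbours in this order, 2 did not overlap within 1 SD of their means over the 6 vehicle libraries. These were IFITM3 from BST2 and IFIT5 from EPSTI1. This measure uses the spread between tumours and does not compare the 2 genes of a pair within each library. It therefore leaves the order within the other pairs undecided.

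**Figure D2:**
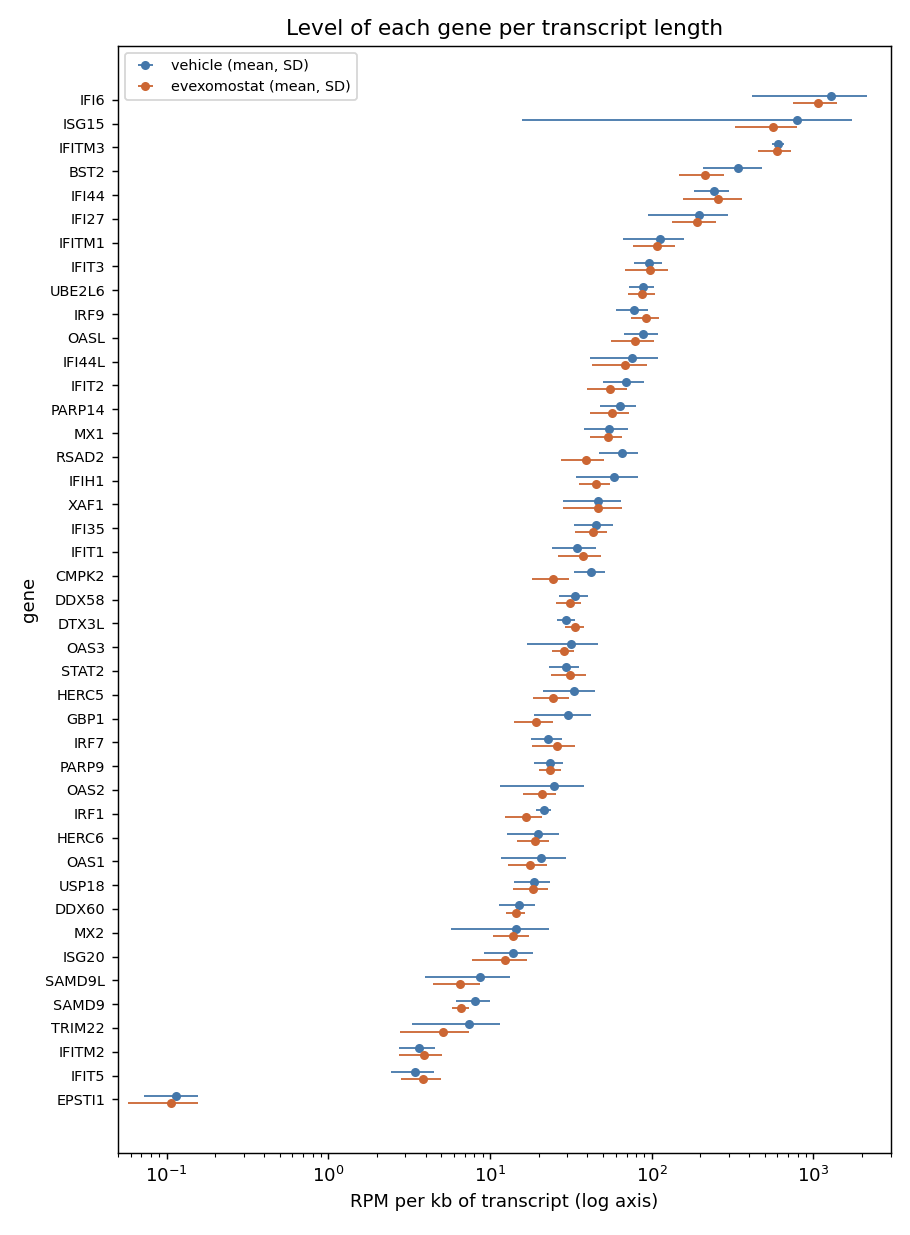
Mean level of each member in RPM per kilobase of the longest GENCODE 29 transcript (log axis), ordered by level, with vehicle and evexomostat plotted separately; bars are SD over 6 vehicle and 5 evexomostat libraries, with the lower end of a bar kept above 0 where the SD reaches the mean. Levels run from 1189 for IFI6 to 0.11 for EPSTI1 over all libraries, and the groups lie close together for most genes.

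Fitted on all 11 libraries, most interferon-stimulated genes had slightly lower mean levels with evexomostat than with vehicle, but no member passed the threshold of an adjusted p under 0.05 (edgeR's quasi-likelihood test, Benjamini-Hochberg adjustment over all 16653 genes). Among all tested genes, 101 (0.606%) passed it. At an unadjusted p under 0.05, 6 members were lower with evexomostat and 0 higher, where 8.55% of all tested genes were lower and 4.82% higher at that level; the 6 were CMPK2, RSAD2, IRF1, GBP1, BST2 and SAMD9. The fold change was below 0 for 38 of 43 members (88.4%) and for 55.4% of all tested genes. Its median on the log2 scale was -0.20 for the members, within a range of -0.89 to 0.16, and -0.04 for all tested genes. In CPM the vehicle and evexomostat libraries overlapped for all 43 members, and 2.97% of all tested genes did not overlap.

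These counts rested in part on the 2 libraries that stood apart. Without vehicle replicate 001, 28 members were lower and 15 higher, with a median of -0.12, and without evexomostat replicate 002, 32 were lower and 11 higher, with a median of -0.10. With both left out, an alternative added after the values were seen, 24 members were lower and 19 higher and the median was -0.04. In that fit 0 members passed the adjusted threshold and 5 had an unadjusted p under 0.05. Of the 16735 genes tested in it, 390 (2.33%) passed the threshold and 3812 had an unadjusted p under 0.05, in either direction. In the 8 libraries whose replicate numbers occur in both groups the direction turned, with 24 members higher and 19 lower (median 0.03). With the replicate number as a block, 25 were higher and 18 lower (median 0.03). These 8 libraries hold neither vehicle replicate 001 nor evexomostat replicate 002, and they leave out vehicle replicate 006 as well. Over the 11 fits that left out 1 library each, 25 of the 43 members kept their sign, and for 36 the fold change turned or shrank by over 1.5 times in at least 1 fit. The 7 others were CMPK2, RSAD2, BST2, GBP1, IRF1, IFIT2 and SAMD9. DESeq2 called 2 members lower, CMPK2 and RSAD2, where it called 2.7% of all genes lower. In the authors' deposited table of fold changes, CMPK2 alone had a false discovery rate under 0.05, as did 0.952% of its genes, and 32 members were lower and 11 higher.

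**Figure D3:**
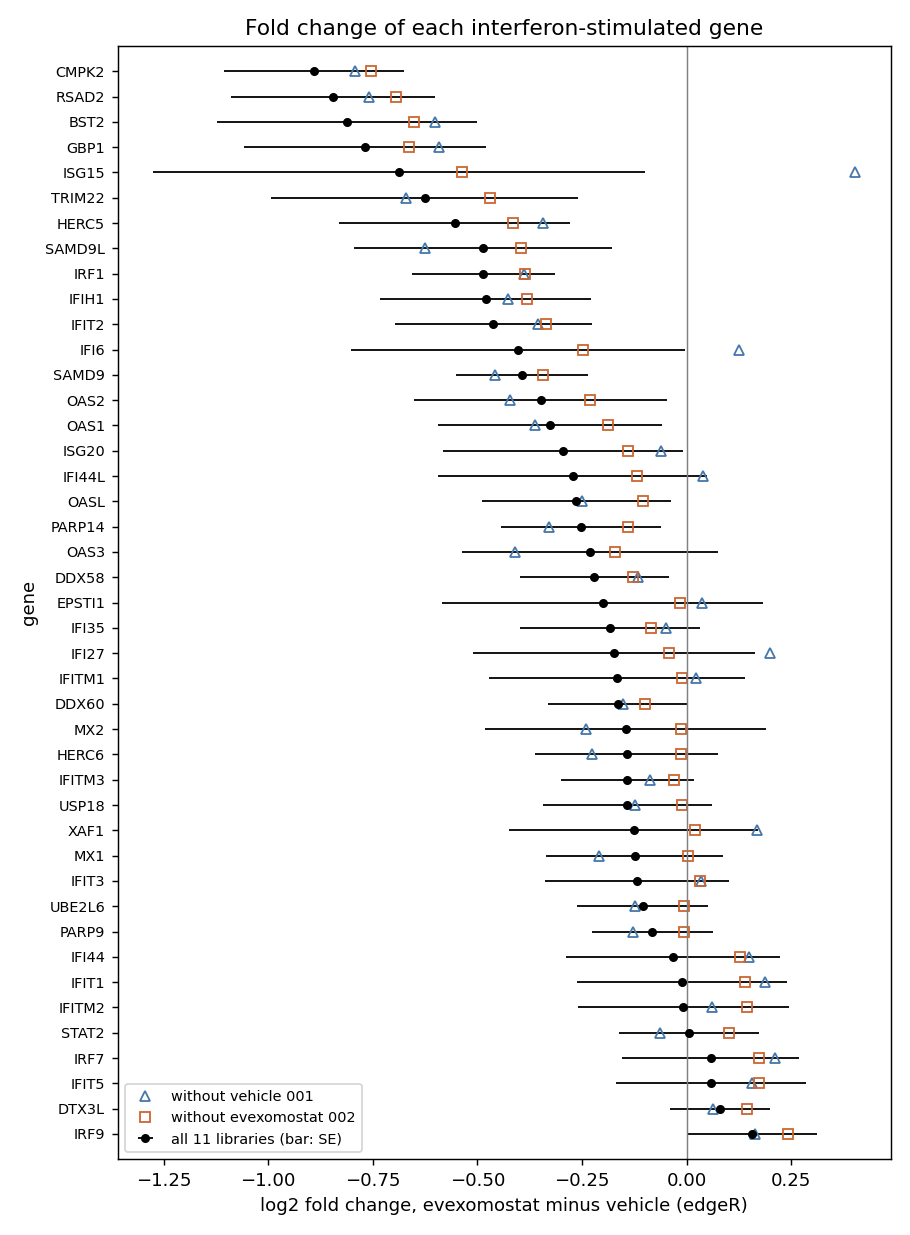
Log2 fold change of each member, evexomostat minus vehicle, from edgeR on all 11 libraries (filled circles, with bars of 1 SE), without vehicle 001 (triangles) and without evexomostat 002 (squares). CMPK2 and RSAD2 lie lowest, at -0.89 and -0.84, and ISG15 and IFI6 cross 0 when vehicle 001 is left out.

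CMPK2 and RSAD2, neighbours on chromosome 2, had the largest negative fold changes. CMPK2 is a mitochondrial nucleotide kinase. In vehicle tumours its lowest, median and highest levels were 82.19, 128.1 and 165.1 CPM, and in evexomostat replicates 002, 003, 004, 005 and 007 they were 40.87, 72.95, 86.48, 72.78 and 67.11 CPM. Only evexomostat replicate 004 reached above the lowest vehicle tumour, replicate 004. The means were 126.1 ± 32.0 CPM (SD, n = 6) with vehicle and 68.0 ± 16.8 CPM (SD, n = 5) with evexomostat, a log2 fold change of -0.89 (edgeR adjusted p = 0.0851, SE 0.22). The call turned on the setting: CMPK2 had an adjusted p of 0.0453 with a log2 fold change of -0.79 when vehicle replicate 001 was left out, where 3.24% of all genes were called lower, and 0.00666 by DESeq2. The log2 fold change in the authors' deposited table was -0.78, with a false discovery rate of 0.0488.

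RSAD2 (viperin) makes a nucleotide that terminates viral RNA chains. Vehicle tumours ranged from 160.8 to 334.9 CPM around a median of 228.2 CPM, and evexomostat replicates 002, 003, 004, 005 and 007 held 74.08, 167.3, 148.5, 150.8 and 123.5 CPM. Evexomostat replicate 003 was the only library of its group inside the vehicle range. The group means of 238.6 ± 73.1 CPM (SD, n = 6) and 132.8 ± 36.4 CPM (SD, n = 5) gave a log2 fold change of -0.84 (edgeR adjusted p = 0.142, SE 0.24), and DESeq2 gave -0.85 with an adjusted p of 0.0310. The annotated spans of CMPK2 and RSAD2 overlap, and use of strand in the counting is not given in the sources used here, so their shared reads cannot be told apart and the pair may not be independent. ISG20, an exonuclease and the other member of this enzyme group, had a log2 fold change of -0.29 (SE 0.29), with an edgeR adjusted p of 0.729, and -0.06 without vehicle replicate 001.

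**Figure D4:**
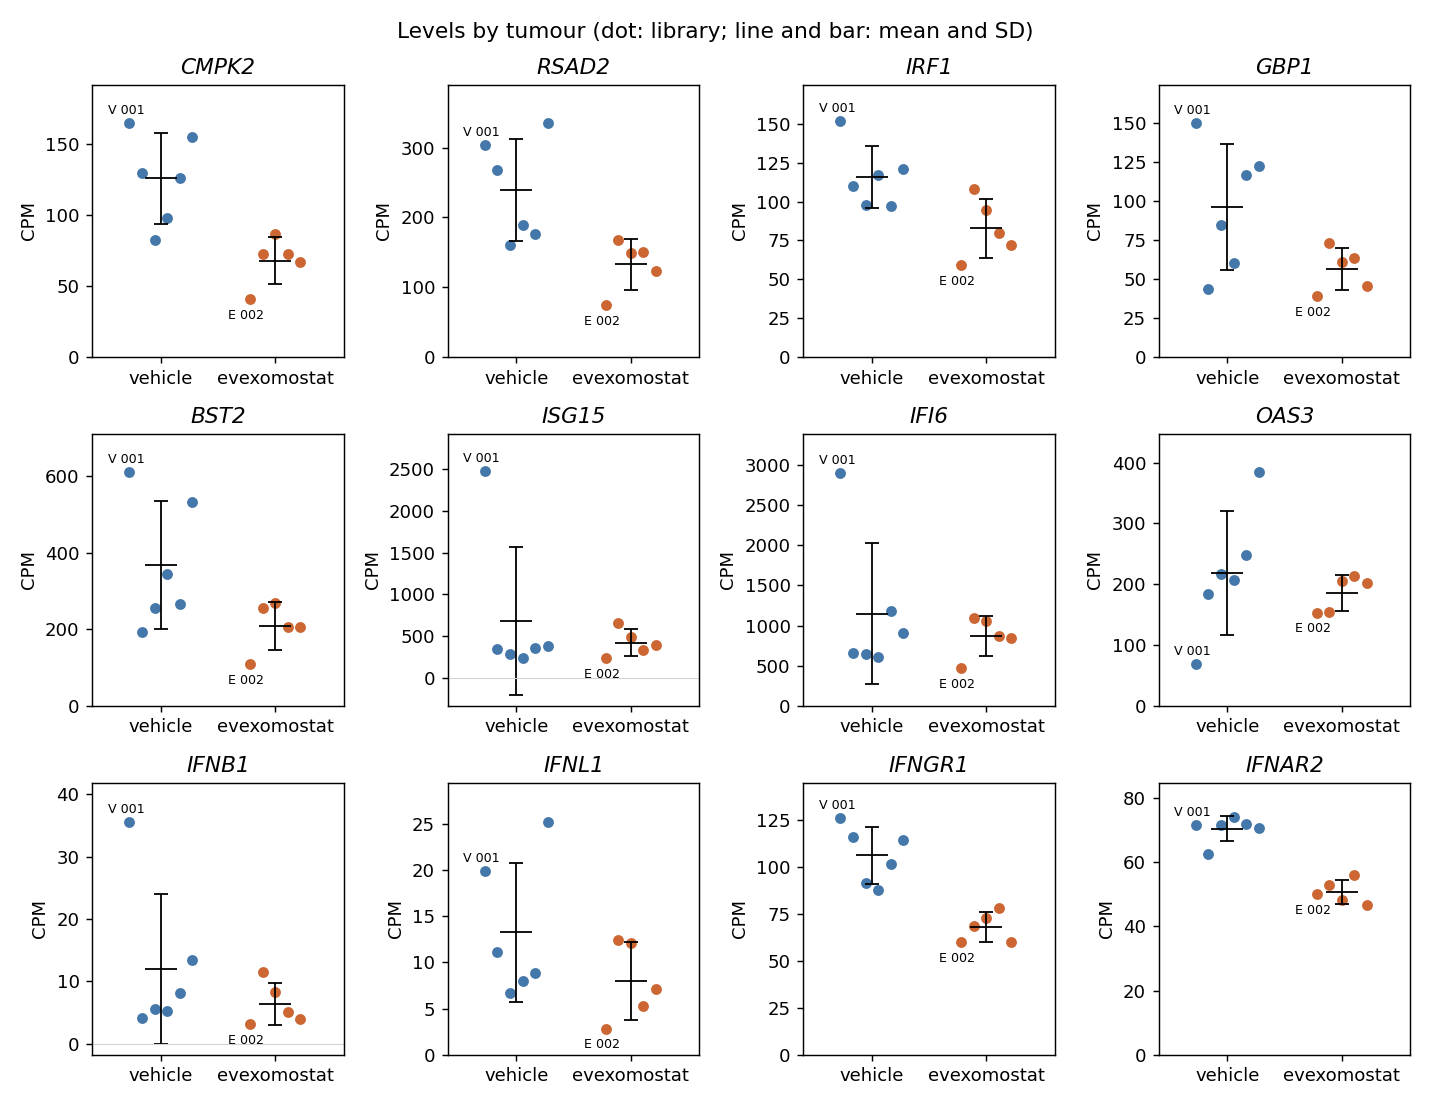
Levels in CPM of 8 members and 4 pathway genes in each library; dots are libraries, horizontal lines are group means and bars are SD (6 vehicle, 5 evexomostat), with vehicle 001 and evexomostat 002 marked. The groups overlap for the 8 members and for IFNB1 and IFNL1, whereas IFNGR1 and IFNAR2 are lower in every evexomostat library than in any vehicle library.

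Among the 4 transcriptional regulators, IRF1 was lower at the unadjusted level, and the 3 others had fold changes near 0. IRF1 is activated by interferon-gamma and by inflammatory signals. It ranged from 97.3 to 151.6 CPM in vehicle tumours (median 113.5 CPM) and stood at 58.87, 107.9, 94.71, 79.83 and 72.28 CPM in evexomostat replicates 002, 003, 004, 005 and 007. Only evexomostat replicate 003 lay inside the vehicle range, and the log2 fold change was -0.49 (SE 0.17; adjusted p = 0.227 by edgeR).

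STAT2 and IRF9 belong to the complex that reads the response element. STAT2 ranged from 72.38 to 117.8 CPM in vehicle tumours (median 97.7 CPM) and was 71.32, 125, 91.16, 115.2 and 92.27 CPM in evexomostat replicates 002, 003, 004, 005 and 007. Its means differed by 0.01 on the log2 scale (edgeR adjusted p = 0.994, SE 0.17). IRF9 ranged from 117.5 to 198.6 CPM with vehicle (median 141.7 CPM) and was 122.8, 197.6, 176, 163.5 and 157.8 CPM in evexomostat replicates 002, 003, 004, 005 and 007. The upper 4 evexomostat tumours exceeded every vehicle tumour but replicate 006, and the log2 fold change of 0.16 (edgeR adjusted p = 0.738, SE 0.16) was the highest of the 43. IRF7, which amplifies type I interferon production, ranged from 32.36 to 72.63 CPM with vehicle (median 47.02 CPM). It was 33.76, 70.56, 55.76, 45.89 and 48.17 CPM in evexomostat replicates 002, 003, 004, 005 and 007, with a log2 fold change of 0.06 (edgeR adjusted p = 0.945, SE 0.21). In STAT2, IRF9 and IRF7 alike, the lowest evexomostat tumour was replicate 002 and the highest was replicate 003.

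The 3 sensors DDX58, IFIH1 and DDX60 had log2 fold changes of -0.22, -0.48 and -0.16. IFIH1, the receptor for long double-stranded RNA, came nearest to the threshold of these, at an edgeR adjusted p of 0.444, and its fold change shrank to -0.22 without vehicle replicate 007, its highest library. DDX58 shrank to -0.12 without vehicle replicate 001 and DDX60 to -0.06 without vehicle replicate 003. The means of IFIH1 were 218.4 ± 95.2 CPM (SD, n = 6) with vehicle and 156.6 ± 30.2 CPM (SD, n = 5) with evexomostat.

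The membrane-bound restriction factors hold viruses at the cell surface or in endosomes. BST2 tethers budding virions. In vehicle tumours it ranged from 193.4 to 609.6 CPM around a median of 304.3 CPM, with replicates 001 and 007 far above the other 4, and in evexomostat replicates 002, 003, 004, 005 and 007 it was 109.5, 255, 268, 207 and 205.2 CPM. Of the evexomostat tumours, 4 lay within the vehicle range and replicate 002 below it. The log2 fold change was -0.81 (SE 0.31; adjusted p = 0.269 by edgeR), and -0.60 without vehicle replicate 001. IFITM3 varied less, from 430.3 to 590 CPM with vehicle (median 518.7 CPM) and at 309.6, 575.2, 479.6, 457.8 and 476.9 CPM in evexomostat replicates 002, 003, 004, 005 and 007. Apart from evexomostat replicate 002, its libraries were mixed between the groups, and the log2 fold change was -0.14 (SE 0.16; adjusted p = 0.771 by edgeR) and -0.03 without that replicate. IFITM1 and IFITM2 had log2 fold changes of -0.17 and -0.01, which turned to 0.02 without vehicle replicate 001 and to 0.14 without evexomostat replicate 002. The 3 IFITM genes are near-identical in parts and lie side by side on chromosome 11, so the counting could split their reads.

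The cytoplasmic restriction factors SAMD9, SAMD9L and TRIM22 had log2 fold changes of -0.39, -0.49 and -0.63; without vehicle replicate 006, SAMD9L and TRIM22 shrank to -0.21 and -0.38. SAMD9 blocks poxvirus replication. It ranged from 43.15 to 78.21 CPM with vehicle (median 58.26 CPM) and was 37.24, 46.34, 45.76, 47.25 and 41.18 CPM in evexomostat replicates 002, 003, 004, 005 and 007. The 5 evexomostat tumours lay close together at 43.6 ± 4.24 CPM (SD), overlapping the 2 lowest vehicle tumours, replicates 001 and 004. The edgeR adjusted p of SAMD9 was 0.293 on a log2 fold change with SE 0.16. In contrast to BST2 and GBP1, it had a more negative log2 fold change without vehicle replicate 001, -0.46, and its weakest was -0.28, without vehicle replicate 007.

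GBP1, a large GTPase that attacks the membranes of intracellular pathogens, ranged from 43.74 to 150.2 CPM in vehicle tumours (median 100.5 CPM). In evexomostat replicates 002, 003, 004, 005 and 007 it was 39.29, 73.11, 60.65, 63.54 and 45.56 CPM. Vehicle replicates 003 and 005 lay among the evexomostat tumours, and the other 4 above them. The log2 fold change was -0.77 (SE 0.29; adjusted p = 0.262 by edgeR), and -0.59 without vehicle replicate 001. The dynamin-like GTPases MX1 and MX2, which trap viral nucleocapsids, had log2 fold changes of -0.12 and -0.15, which turned to 0.02 and 0.09 without vehicle replicate 007.

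The ISG15 system conjugates ISG15 to proteins through UBE2L6 and HERC5, and USP18 removes it. ISG15 itself was far higher in 1 tumour: vehicle replicate 001 held 2478 CPM, and the other 5 vehicle tumours held 340.3, 286.3, 240.6, 356.3 and 379.2 CPM (replicates 003 to 007). Evexomostat replicates 002, 003, 004, 005 and 007 held 234, 659, 492.8, 328.6 and 396.4 CPM. The log2 fold change of -0.69 (edgeR adjusted p = 0.680, SE 0.59) became 0.40 (edgeR adjusted p = 0.317) when vehicle replicate 001 was left out. So the direction of ISG15 between the groups depended on that tumour.

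HERC5 ranged from 66.24 to 203.4 CPM with vehicle (median 109.9 CPM) and was 48.97, 91.09, 91.67, 84.43 and 99.52 CPM in evexomostat replicates 002, 003, 004, 005 and 007. The log2 fold change was -0.55 (SE 0.28; adjusted p = 0.415 by edgeR), and -0.34 without vehicle replicate 001, which was the highest library. UBE2L6, HERC6 and USP18 had log2 fold changes of -0.11, -0.14 and -0.14. UBE2L6 and USP18 shrank to -0.0069 and -0.0098 without evexomostat replicate 002, and HERC6 turned to 0.02 without vehicle replicate 006.

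The IFIT proteins bind foreign RNA ends and the translation factor eIF3. IFIT2 ranged from 171.9 to 393.3 CPM with vehicle (median 240.6 CPM) and was 124.4, 257.3, 198.5, 216.2 and 181.1 CPM in evexomostat replicates 002, 003, 004, 005 and 007, all but replicate 002 inside the vehicle range. Its log2 fold change was -0.46 (SE 0.23; adjusted p = 0.423 by edgeR). IFIT1, IFIT3 and IFIT5 had log2 fold changes of -0.01, -0.12 and 0.06. IFIT1 and IFIT3 turned to 0.19 and 0.03 without vehicle replicate 001, and IFIT5 to -0.05 without evexomostat replicate 003.

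The OAS proteins make oligoadenylates that activate the nuclease RNase L. OAS3 was the reverse of ISG15: vehicle replicate 001 was the lowest library at 69.52 CPM, vehicle replicates 003 to 007 held 183.4, 216.9, 206.7, 248 and 383.9 CPM, and evexomostat replicates 002, 003, 004, 005 and 007 held 153.5, 154.8, 204.6, 212.9 and 202.8 CPM. The log2 fold change of -0.23 (edgeR adjusted p = 0.813, SE 0.31) became -0.41 without vehicle replicate 001 and 0.0057 without vehicle replicate 007, its highest library. OAS1, OAS2 and OASL had log2 fold changes of -0.33, -0.35 and -0.26. OAS1 and OAS2 shrank to -0.08 and -0.08 without vehicle replicate 007, and OASL to -0.10 without evexomostat replicate 002.

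Of the other inducible genes, IFI6 again followed vehicle replicate 001, with 2893 CPM there and 657.6, 642.8, 605.5, 1180 and 910.6 CPM in vehicle replicates 003 to 007. Evexomostat replicates 002, 003, 004, 005 and 007 held 467.8, 1099, 1057, 872.7 and 844.2 CPM. Its log2 fold change of -0.40 (edgeR adjusted p = 0.736, SE 0.40) became 0.13 without vehicle replicate 001. IFI27, IFI35, IFI44, IFI44L, XAF1 and EPSTI1 had log2 fold changes between -0.27 and -0.03. Without vehicle replicate 001, 5 of these 6 turned positive, IFI27 at 0.20, XAF1 at 0.17, IFI44 at 0.15, IFI44L at 0.04 and EPSTI1 at 0.04, and IFI35 shrank to -0.05. PARP9, PARP14 and DTX3L had log2 fold changes of -0.08, -0.25 and 0.08, and the weakest with 1 library left out were -0.0016 (without vehicle replicate 006), -0.14 (without evexomostat replicate 002) and 0.04 (without vehicle replicate 004). The annotated spans of PARP9 and DTX3L overlap, with the same limit on shared reads as for CMPK2 and RSAD2.

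The summed level of the members differed from tumour to tumour within both groups. The share of all counts that fell on the 43 genes ran from 0.453% in evexomostat replicate 002 to 1.24% in vehicle replicate 001. Taking each gene's deviation from its mean log2 CPM over the 11 libraries, the median deviation of the 43 was 0.49, -0.08, -0.26, -0.08, 0.27 and 0.31 in vehicle replicates 001 and 003 to 007. It was -0.73, 0.17, 0.10, -0.05 and -0.08 in evexomostat replicates 002, 003, 004, 005 and 007. The 2 extremes were therefore 1 tumour of each group, with the other 9 between -0.26 and 0.31.

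Evexomostat replicate 002 was the lowest tumour of its group for 43 of 43 members and the lowest of all 11 for 34. Against the mean of the other evexomostat tumours it was lower by a median of 0.81 on the log2 scale, with single genes between -1.08 and -0.27. Over all tested genes that difference had a median of -0.01, with 50.8% of genes below 0 and a 5th percentile of -0.81. Evexomostat replicate 003 was the highest of its group for 27 members. It stood above the mean of the others for 41 members, with a median difference of 0.44 over the 43, and that mean includes replicate 002. Over all tested genes this difference had a median of 0.03, with 47.4% of genes below 0 and a 95th percentile of 0.90. No test was made between single tumours.

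In vehicle replicate 001 the members differed from the other vehicle tumours in both directions, along with gene length. It was the highest of the 11 libraries for 20 members and the lowest for 2. The same count over all tested genes is not given here, so the 20 cannot be read as particular to the members. Over all tested genes the median vehicle SD of log2 CPM was 0.42 with this library and 0.28 without it. The 7 members with a longest transcript under 1500 nucleotides, ISG15 and IFI6 among them, were higher there than the mean of the other vehicle tumours by a median of 0.96 on the log2 scale (range 0.27 to 2.97). The 10 members of 5000 nucleotides or more had a median difference of -0.23 (range -1.78 to 1.32), OAS3 at the lower end. The same medians over all tested genes with a length were 0.66 and -0.34, so the length pattern was present throughout this library. Pearson's r of the difference with log2 length was -0.50 across the 43 genes and -0.23 across 15746 genes, as a description over genes that share 1 library. The part of transcript length in the high ISG15 and IFI6 of this tumour was not tested.

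**Figure D5:**
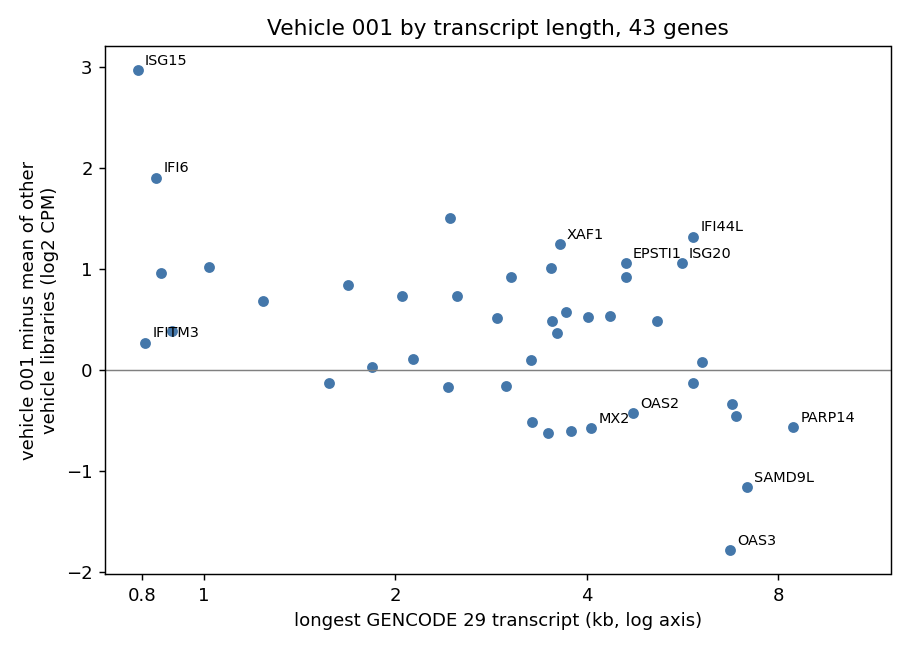
Difference of vehicle 001 from the mean of the other 5 vehicle libraries (log2 CPM) for each member against the length of its longest GENCODE 29 transcript (kilobases, log axis); each dot is a gene. ISG15 and IFI6 lie high at the short end, and SAMD9L and OAS3 lie low at the long end, at -1.16 and -1.78.

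The median spread between tumours was larger for the members than for all tested genes, and in the evexomostat group this rested on replicate 002. The median SD of log2 CPM was 0.45 over the 6 vehicle tumours (0.39 without replicate 001) and 0.39 over the 5 evexomostat tumours. For all tested genes these medians were 0.42 (0.28 without replicate 001) and 0.23. Without evexomostat replicate 002, a check added after the values were seen, the evexomostat median was 0.18 for the members and 0.21 for all tested genes. The vehicle SD was the larger of the 2 for 26 of 43 members (60.5%) and for 81.2% of all tested genes. Without vehicle replicate 001 these shares were 48.8% (21 members) and 63.1%, and with evexomostat replicate 002 left out as well they were 76.7% (33 members) and 65.8%. Across the 903 pairs of members, the median correlation of log2 CPM was 0.35 in vehicle tumours, 0.51 in the 5 vehicle tumours other than replicate 001, 0.87 in evexomostat tumours and 0.41 in the 4 evexomostat tumours other than replicate 002. These correlations rest on 4 to 6 libraries that all pairs share, and they are given as a description.

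The human interferon genes themselves were at low levels. Counts were made on human genes, so these values do not give the level of interferon made by the mouse cells. Of 13 ligand genes, 9 had too few counts to test, among them IFNG and the IFNA genes. IFNB1, the type I interferon that most cell types can make, ranged from 4.18 to 35.59 CPM with vehicle (median 6.93 CPM), with replicate 001 far above the rest, and was 3.134, 11.46, 8.261, 5.066 and 4.012 CPM in evexomostat replicates 002, 003, 004, 005 and 007. IFNL1, a type III interferon that acts on epithelia, ranged from 6.644 to 25.21 CPM with vehicle (median 9.98 CPM) and was 2.824, 12.43, 12.07, 5.265 and 7.122 CPM in the same evexomostat tumours. Both were lowest of all 11 libraries in evexomostat replicate 002 and highest of their group in evexomostat replicate 003, as most members were. Their log2 fold changes were -0.91 (edgeR adjusted p = 0.521, SE 0.55) and -0.74 (edgeR adjusted p = 0.491, SE 0.43). IFNB1 shrank to -0.20 without vehicle replicate 001, and IFNL1 to -0.45 without vehicle replicate 007. IFNL2 and IFNL3, the remaining tested ligands, had smaller log2 fold changes of -0.20 and -0.25. Without evexomostat replicate 002 these turned to 0.010 and 0.0090.

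For 2 of 53 tested pathway genes (3.77%), both receptor chains, the groups did not overlap in CPM, a share near the 2.97% of all tested genes. IFNGR1, the ligand-binding chain of the interferon-gamma receptor, ranged from 87.73 to 125.9 CPM with vehicle (median 107.8 CPM) and was 59.68, 68.41, 72.61, 77.84 and 59.96 CPM in evexomostat replicates 002, 003, 004, 005 and 007. The means were 106 ± 15.1 CPM (SD, n = 6) and 67.7 ± 7.93 CPM (SD, n = 5), and IFNGR1 fell by 0.65 on the log2 scale (edgeR adjusted p = 0.0478, SE 0.13). It passed narrowly: in the fits that left out 1 library the adjusted p ran from 0.0158 to 0.177, and it passed in 9 of 23 alternatives in all, with a log2 fold change below 0 in each.

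IFNAR2, the ligand-binding chain of the type I receptor, ranged from 62.78 to 74.16 CPM with vehicle (median 71.61 CPM) and was 50.06, 52.98, 48.37, 56.06 and 46.65 CPM in evexomostat replicates 002, 003, 004, 005 and 007. The groups did not overlap here either. The means were 70.5 ± 3.94 CPM (SD, n = 6) and 50.8 ± 3.74 CPM (SD, n = 5), a log2 fold change of -0.47 (edgeR adjusted p = 0.0581, SE 0.10), which just missed the threshold; IFNAR2 passed in 5 of the 23 alternatives, with an adjusted p of 0.0132 without vehicle replicate 001. In evexomostat replicate 002, the tumour with the lowest member levels, IFNGR1 was the lowest of its group, nearly level with replicate 007. IFNAR2 in that tumour lay in the middle of its group.

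IFNGR1 was the only 1 of 53 tested pathway genes (of 68 listed, none of them a member) to pass the adjusted threshold. Of all 16653 tested genes, 101 (0.606%) passed it. At an unadjusted p under 0.05, 11 of the 53 were lower and 0 higher, 45 (84.9%) had a log2 fold change below 0, and the median was -0.25; over all tested genes 8.55% were lower and 4.82% higher at that p, 55.4% were below 0 and the median was -0.04. Besides the pair of receptors these included the interferon-gamma-biased guanylate-binding proteins GBP2 (-0.62) and GBP3 (-0.39), the kinase IKBKE (-0.41), the STAT inhibitor PIAS1 (-0.40), IFNAR1 (-0.27), JAK2 (-0.26), the antiviral zinc finger protein ZC3HAV1 (-0.29) and the cytokine signalling inhibitor SOCS3 (-0.38), all as log2 fold changes. The edgeR adjusted p-values of these named genes, other than the pair of receptors, ran from 0.151 to 0.365.

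Markers of other cells that interferon could come from or act on were compared beside these values. The summed level of 14 leukocyte markers was 43.6 to 107.5 CPM in vehicle tumours and 77.3 to 82.7 CPM in evexomostat tumours, and CD3E, MS4A1, IL3RA and LILRA4 had no counts in any library. Evexomostat replicate 002, with 77.3 CPM, and vehicle replicate 001, with 43.6 CPM, were the lowest of their groups. The 7 fibroblast markers summed to 397.2 to 2057 CPM with vehicle and 494.3 to 1068 CPM with evexomostat, and the 6 endothelial markers to 12.4 to 23.2 CPM and 11.5 to 15.7 CPM. The 12 skeletal muscle markers ranged from 2.03 to 20.7 CPM with vehicle and from 2.30 to 473.9 CPM with evexomostat, highest in replicate 005, in which the median member deviation was -0.05. The 5 adipocyte markers reached at most 2.72 CPM in sum. The part of these cells in the levels of interferon-stimulated genes was not tested, and whether the human gene counts hold reads from mouse cells was not analysed here.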

How the data were processed

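RNA from 11 tumours was sequenced after NEBNext Ultra library preparation, per the labels' protocols. The authors deposited raw counts per gene and reads scaled to the library total (RPM), made with bcl2fastq 2.17, STAR 2.7.5c, featureCounts (Subread) and edgeR on GRCh37/hg19, per the submitters' processing notes; the annotation and use of strand are not given in the sources used here. Recomputed RPM differed from the deposited RPM by at most 2.27e-13. The deposited comparison table gives the authors' log2 fold changes, p-values and false discovery rates.

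Counts were tested with edgeR 4.0.16 (R 4.3.3; TMM scaling, filterByExpr with a minimum count of 10 and a minimum total of 15, quasi-likelihood test, Benjamini-Hochberg adjustment over 16653 genes, threshold 0.05), all 11 libraries in 1 fit with the group as the only term. Alternatives were DESeq2 1.42.0, voom and trend fits in limma 3.58.1, other scalings and filters, a replicate block and left-out libraries. For this comparison, data were simulated with 16516 genes, 200 of them changed. On the log2 scale, edgeR recovered 44% of genes changed by 1 and 86% of those changed by 2. Of its calls, 4.41% were false, and of those by DESeq2, 21.9%. The simulation drew each gene independently and held no library that stood apart as vehicle replicate 001 and evexomostat replicate 002 did. The rates may therefore differ in the real libraries.

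Members and lists were chosen with earlier results of these data known. Values by library are given for the 8 members with the smallest p, the 3 with the highest RPM per kilobase, the 3 with the largest vehicle SD of log2 CPM and the 4 regulators; of the pathway genes, for those past the threshold, with up to 10 others at an unadjusted p under 0.05 named, except for 1 that is not reported here. IFNAR2, IFNB1 and IFNL1 were given by library after their values were seen. RefSeq synonyms matched 3 listed symbols. The authors' files are in symbols, so no gene coordinates in their build are given.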

Additional observations from a re-analysis of the deposited data

Results flagged for a closer look

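In 192 checks of a group's extreme library against its other libraries, 8 values stood further out than Dixon's 95% criterion allows. Chance flags about 5% of groups, and these 8 do not exceed that share. Vehicle replicate 001 held 4 of the 8. ISG15 was 2478 CPM there and 240.6 to 379.2 CPM in the other vehicle tumours, IFI6 was 2893 CPM against 605.5 to 1180 CPM, XAF1, a pro-apoptotic protein, was 337.7 CPM against 123 to 190.7 CPM, and IFNB1 was 35.59 CPM against 4.18 to 13.49 CPM. Evexomostat replicate 002 held 2: HERC6 was 42.92 CPM against 72.06 to 79.1 CPM in the other evexomostat tumours, and the median deviation of the 43 members was -0.7314 on the log2 scale against -0.08173 to 0.1696. IRF9 was 198.6 CPM in vehicle replicate 006 against 117.5 to 147.1 CPM. IFNAR2 was 62.78 CPM in vehicle replicate 003, low against 70.75 to 74.16 CPM in the other vehicle tumours and still above every evexomostat tumour.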

How the results depend on the processing

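The median log2 fold change of the members ranged from -0.28 to -0.10 when 1 library was left out, 0 to 1 members passed the threshold (1 without vehicle replicate 001) and 0 to 5 pathway genes did (5 without vehicle replicate 001, where 5.22% of all genes were called, against 0.606% with all libraries). DESeq2 called 2 members and 3 pathway genes, and 3.90% of all genes. Pathway calls were 0 with upper quartile scaling, 0 with no count filter, 0 in both limma-trend fits on log2(RPM + 1) and log2(RPM + 0.1), 4 with voom quality weights (6.36% of all genes) and 3 with vehicle replicate 001 and evexomostat replicate 002 both left out (2.33% of all genes; added after the data were seen). The trend fits moved the median of all genes from -0.04 to 0.08 and 0.10, with 13 members higher and 30 lower in each; quality weights gave 17 higher and 26 lower.

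Samples with the same number in both groups (003, 004, 005, 007) correlated at -0.27, 0.07, 0.05 and -0.10 in their deviations, so the numbers were not taken as pairs. With a replicate block on those 8 libraries, 0 members and 0 pathway genes were called, 25 members were higher and 18 lower (median 0.03), and IFI6, ISG15 and IFITM3 had log2 fold changes of 0.46, 0.56 and 0.031. Without the block on the same 8, 0 members and 4 pathway genes were called (4.42% of all genes), 24 members were higher and 19 lower, and the 3 values were 0.45, 0.58 and 0.031. The call for IFNGR1 was not made with the block (edgeR adjusted p = 0.132).

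Directions of single genes also turned elsewhere, ISG15 and IFI6 among them, and the cause was not tested. With quality weights IFI6, ISG15 and STAT2 were 0.14, 0.26 and -0.069, and STAT2 was -0.0030 by limma-voom. With both libraries out IFI6, ISG15 and IFITM3 were 0.27, 0.54 and 0.012. In the trend fits OAS3 was 0.012 and 0.014. With 1 library out, IFI6 ran from -0.53 to 0.13, ISG15 from -0.91 to 0.40, STAT2 from -0.092 to 0.10, IRF7 from -0.088 to 0.21 and OAS3 from -0.41 to 0.0057. CMPK2, RSAD2, IRF1, GBP1, BST2, SAMD9, HERC5, IFIT2, IFNGR1 and IFNAR2 stayed below 0 in all 23 alternatives. Depth limits EPSTI1, which had at most 23 counts in a library.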
